A study of Danio rerio with 36 samples.

Results

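GFP-positive cells sorted as Müller glia (MG) from zebrafish eyes at 96hpf and at 192hpf were compared by RNA-seq. The aim was to describe how these sorted cells differ between the end of early retinal development and the later larval stage. The comparison was chosen by stage and sort: the 3 data columns of 192hpf MG were set against the 3 columns of 96hpf MG, 6 of the 36 columns of the series. All animals were wild type zebrafish carrying the Tg(GFAP:GFP) transgene, in which a gfap promoter drives GFP, and all had been kept in phenylthiourea to block pigment. Eyes of several larvae were pooled at each stage, dissociated and sorted, and GFP-positive cells were collected as MG and GFP-negative cells as C. The gfap promoter marks the sorted cells by reporter protein, so a cell can be sorted on GFP made earlier. The C libraries of 96hpf and 192hpf, and the 120hpf MG library, are used below only for reference.

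MG are the radial glia of the retina. They span it from the photoreceptors to the vitreous, take up and recycle glutamate and GABA, move water and potassium, supply lactate and lipids, return retinoid to cones, and hold the layers together at the outer and inner limiting membranes. In zebrafish they keep a latent capacity to re-enter the cell cycle and replace lost neurons. As they mature they lose progenitor traits, send fine processes into the plexiform layers and take on these support functions.

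The values are CPM, each gene's share of the reads on genes scaled to 1000000. Reads on genes numbered 2425024 to 2474778 per column at 96hpf and 4227340 to 4495382 at 192hpf, so 3 reads, used as the floor under which a level was not read, were worth 1.24 CPM in the shallowest column. For the median gene, columns of a stage differed by about the sampling noise of their reads or less, although a few genes, named at the end, differed far more. The median squared difference was 0.16 times the sampling value between columns 1 and 2 of 96hpf MG and 0.144 times between those of 192hpf MG. For pairs with column 3 it was 0.928 and 0.997 times at 96hpf and 0.943 and 1.03 times at 192hpf. Columns 1 and 2 of a stage were thus closer than separate samples of reads would be, and the cause was not tested. Between the stages the median squared difference was 7.87 to 8.34 times the sampling value. The 3 columns of a stage were therefore counted as 1 library. With 1 library per stage there is no replicate error and no p-value is given: a gene was called when the libraries were at least 2-fold apart, and the 95% intervals below cover counting error only. Nothing in the labels says that the columns came from separate animals, although the study describes 3 experimental replicates per time point.

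A block of the genome carries no values in this table. Of the 31540 genes, 7496 (23.8%) are listed at 0 in all 36 columns. By the chromosome of the 11886 genes whose symbol is in RefSeq (assembly GRCz12tu), 99.1% to 99.8% of the genes on chromosomes 1, 10, 11 and 12 are listed at 0, against 1.1% to 8.31% on each of the other 21 chromosomes. The proliferation genes PCNA and mki67, the kinase genes CDK2 and CDK4, the blue opsin gene opn1sw2 and the red opsin genes opn1lw1 and opn1lw2 are among the genes at 0. Nothing can be said of such genes, CPM are shares of the reads on the remaining genes, and the lists below are described by their members above the floor.

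The sort label was checked on 23 MG marker genes, 20 of them above the floor. Their summed level was 28596 to 29245 CPM in the columns of 96hpf MG and 22853 to 23295 CPM in those of 192hpf MG, against 3395 to 3401 CPM and 5540.5 to 5574 CPM in C. Transcripts of photoreceptors were also higher in MG than in C. The rod list took 65567 to 68633 CPM of 96hpf MG and 64477 to 67808 CPM of 192hpf MG, against 10031 to 10466 CPM and 18603 to 19385 CPM in C. Together the rod and cone lists held 27.46% of the reads of 96hpf MG and 16.3% of those of 192hpf MG, against 1.37% and 2.62% in C. The cone list alone took 207956 CPM of 96hpf MG and 96848 CPM of 192hpf MG, against 3547 CPM and 7327 CPM in C. The MG markers held 2.9% of the reads of 96hpf MG and 2.31% of those of 192hpf MG. The GFP-positive libraries therefore carried both glial and photoreceptor RNA, and the rod and cone lists held the larger share. Levels given below for MG are those of this mixture. In sorted bulk samples, fewer cells of a type and less RNA per cell cannot be told apart.

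Of 14938 genes above the floor in either MG library, 2297 (15.4%) were at least 2-fold higher at 192hpf and 654 (4.38%) at least 2-fold lower. The median log2 change of all genes was 0.28. A trimmed mean of M values (TMM) scaling moved every log2 change down by 0.28 and gave 1363 higher (9.12%) and 1173 lower (7.85%), so the balance of rises and falls depends on the scaling, and list medians below are read against 0.28. For each list the numbers of members higher and lower under TMM are given after the main counts, as TMM counts. They are read against these 9.12% and 7.85%, and the main counts against 15.4% and 4.38%. Of the rises named below, those of ARR3, RDH8, SDHA, SLC1A3, apoeb, btg1, ciartb, cry1ab, jag1b, nfat5b, onecut1, opn1sw1, sagb, wt1b and PANX1 were under 2-fold under TMM. The 10 most abundant genes took 32.7% of the reads at 96hpf and 21.4% at 192hpf.

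**Figure D1:**
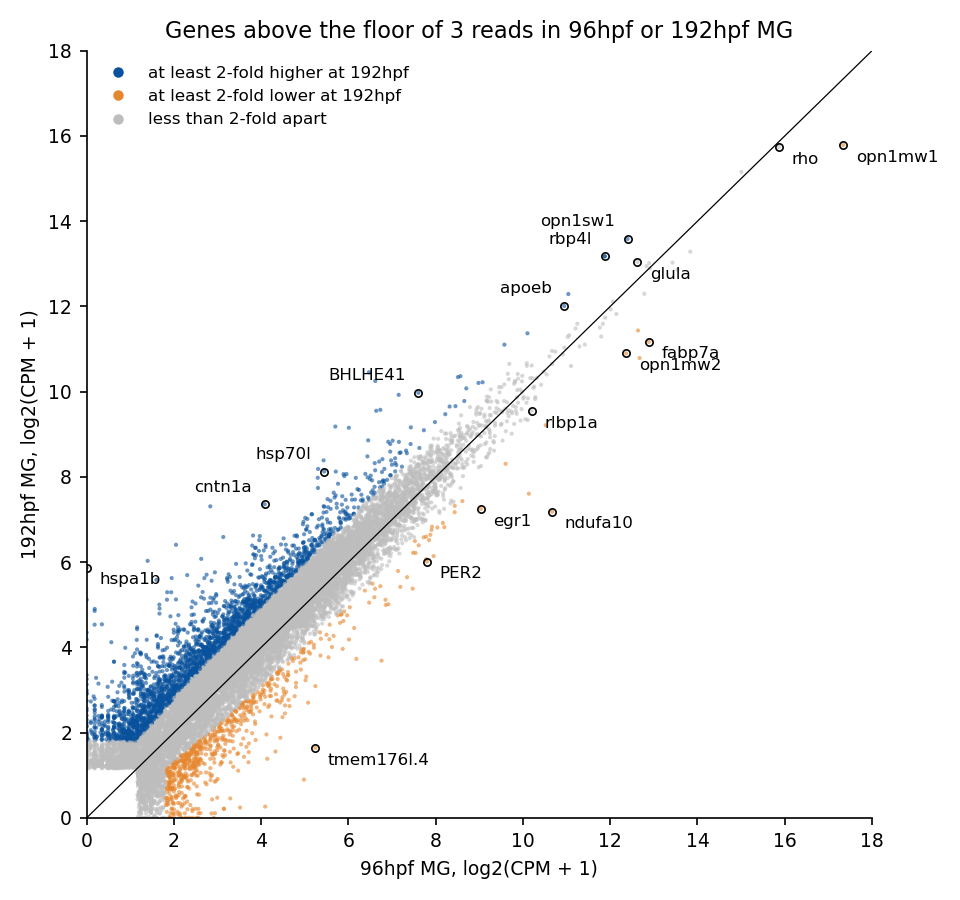
Level of each gene above the floor in 96hpf MG (x axis) and 192hpf MG (y axis), both as log2(CPM + 1), with 17 genes circled and named. The green cone opsin gene opn1mw1 lies farthest to the right and below the diagonal, and most genes lie close to the diagonal.

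The 2 libraries were each other's nearest library in the series. That they were nearest among the MG groups was known when the comparison was chosen, so it is given as description only. Their Euclidean distance over 17798 genes was 99.4 and their Spearman correlation 0.95. The next nearest library to 96hpf MG was 96hpf C, at 175, and the next nearest to 192hpf MG was also 96hpf C, at 161. The 120hpf MG library, which lies between them in time, was the farthest of all from both, at 315 and 326. Of the 1335 genes at 10 CPM or more that were higher at 192hpf, 15.7% had a 120hpf level between the other levels, 25.9% lay above both and 58.4% below both. These genes were 14.6% of the 9149 at 10 CPM or more. For the 219 (2.39%) that were lower at 192hpf the shares were 14.2%, 20.1% and 65.8%. The 120hpf library was therefore not read as a midpoint.

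The MG markers split into genes that fell and genes that rose or stayed within 2-fold. Of 20 above the floor, 2 were at least 2-fold higher and 3 lower (background 15.4% and 4.38%; TMM counts 0 and 6), and their median log2 change was -0.01, below the 0.28 of all genes. SLC1A3 (ENSDARG00000104431), a glial glutamate transporter gene at 3.44 CPM and then 7.3 CPM, and apoeb were the 2 higher, and HEPACAM, fabp7a and SLC1A2 (ENSDARG00000102453) the 3 lower. This SLC1A3 gene was higher in C than in MG at both stages, with 14.7 and 56 CPM, and it rose there too (log2 change 1.93). Symbols in capitals are human-style names that the gene table gives to a zebrafish gene, and where such a name stands for several genes the identifier is added.

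The brain-type fatty acid binding protein gene fabp7a, a gene of radial glia and neural progenitors, was the most abundant glial marker at 96hpf. It had 7639.8, 7667 and 7377 CPM in the 96hpf columns and 2316, 2339.5 and 2260.4 CPM in the 192hpf columns. That is a 3.28-fold fall (log2 change -1.71, 95% interval -1.75 to -1.68). In C the gene had 1142 CPM at 96hpf and 1033 CPM at 192hpf. The C library thus showed no fall of this size.

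SLC1A2 (ENSDARG00000102453), a glial glutamate transporter gene, went from 6349, 6391 and 6376 CPM to 2784, 2753 and 2770.2 CPM (log2 change -1.20, interval -1.24 to -1.17). Its paralogue SLC1A2 (ENSDARG00000052138) stood at 636, 629 and 588 CPM and then at 889, 858 and 868 CPM, a log2 change of 0.50. The 2 copies thus differed in direction within the same libraries. HEPACAM, a glial cell adhesion gene, was low throughout, with 11.5, 10.3 and 11.7 CPM at 96hpf and 1.88, 1.66 and 1.56 CPM at 192hpf (log2 change -2.72, interval -4.21 to -1.54).

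The apolipoprotein gene apoeb, which glia use to export lipid, rose from 1982, 2003 and 1931 CPM to 4109, 4151 and 4116 CPM (log2 change 1.06, interval 1.02 to 1.11), or 0.78 above the median of all genes. In C it rose more, from 230.3 to 1054 CPM. The glutamine synthetase genes, which turn glutamate into glutamine, moved by less than 2-fold. The copy glula had 6311 CPM at 96hpf and 8441 CPM at 192hpf (log2 change 0.42), whereas GLUL (ENSDARG00000100003) had 3549.7 CPM and 2512 CPM (log2 change -0.50).

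The other MG markers above the floor stayed within 2-fold, although cahz (-1.22), gpm6bb (-1.06) and GFAP (-1.04) were called lower under TMM. The retinoid carrier gene rlbp1a had 1174 CPM at 96hpf and 746 CPM at 192hpf (log2 change -0.65). The carbonic anhydrase gene cahz went from 291 to 151 CPM (-0.94) and the membrane glycoprotein gene gpm6bb from 525 to 305 CPM (-0.79). GFAP, whose promoter drives the reporter, was low, with 17.2, 17.7 and 17 CPM at 96hpf and 11.3, 10.4 and 8.9 CPM at 192hpf (-0.76, interval -1.40 to -0.11), against 1.44 and 0.234 CPM in C. The water channel gene aqp4 differed little, with 49 and 46.9 CPM (-0.06, interval -0.40 to 0.27). Levels above those of 96hpf, but under 2-fold, were found for the glucose transporter gene slc2a1a (0.68), the apical polarity gene crb2a (0.74), the retinol dehydrogenase gene RDH10 (0.92) and the gap junction gene cx43 (0.41). The intermediate filament gene vim had 6.88 and 7.1 CPM (0.05), and the low copy of the potassium channel gene KCNJ10 (ENSDARG00000105022) 4.6 and 3.17 CPM (-0.54).

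**Figure D2:**
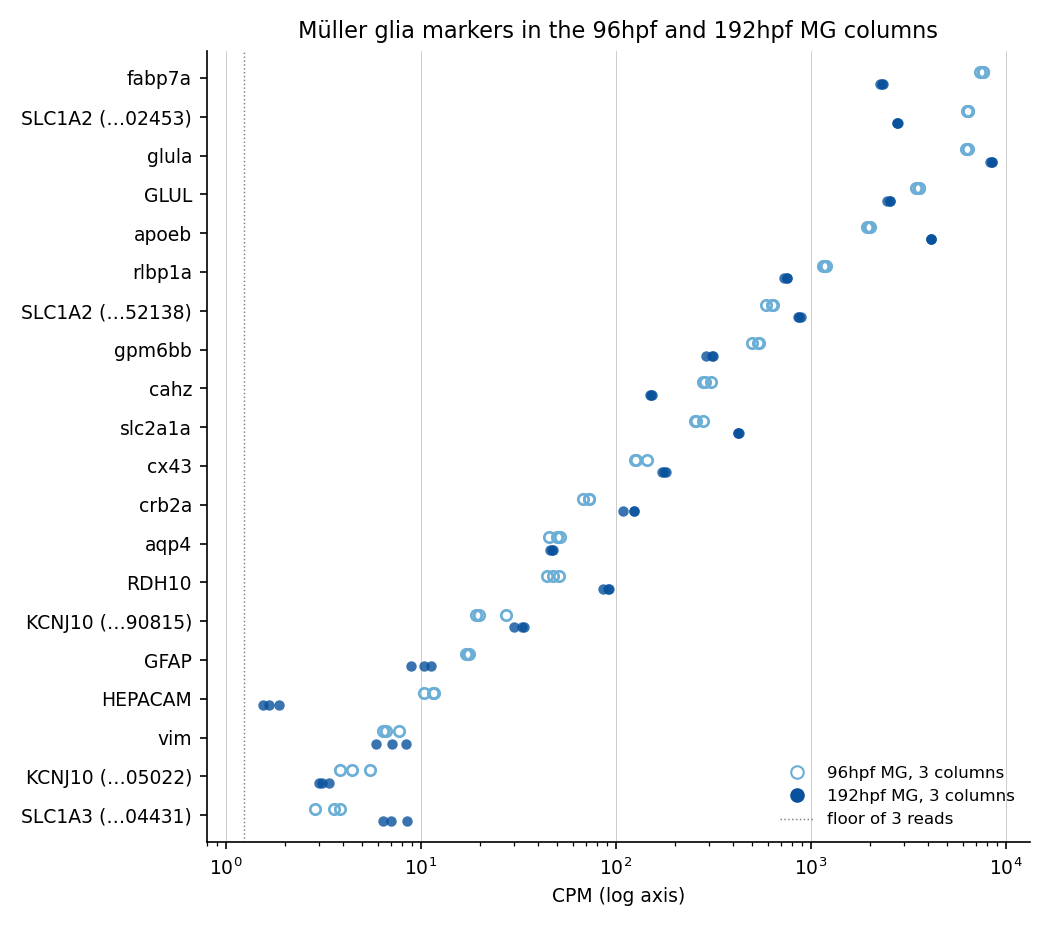
CPM of the 20 Müller glia markers above the floor in each of the 3 columns of 96hpf MG (open circles) and 192hpf MG (filled circles), on a log axis, with the floor of 3 reads dotted. The columns of a stage lie close together, fabp7a and SLC1A2 (ENSDARG00000102453) moved left and apoeb moved right.

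Among 20 genes of glutamate and GABA uptake and recycling, 3 (15%, near the 15.4% of all genes) were higher and 3 (15%, against 4.38%) lower (TMM counts 2 and 3). Their median log2 change was 0.33. The glutamate transporter gene slc1a8b rose from 43.3, 41.4 and 51.3 CPM to 153, 154 and 159 CPM (log2 change 1.78, interval 1.48 to 2.08). The GABA transaminase gene abat, which breaks down GABA, rose from 33.2 to 90.4 CPM (1.44). The transporter gene SLC1A7 (ENSDARG00000034940) fell from 105 to 42.3 CPM (-1.32), and it fell in C too, from 89.7 to 43.7 CPM. Of 32 genes of water, potassium and pH control, 4 (12.5%, against 15.4%) were higher and 2 (6.25%, against 4.38%) lower (TMM counts 4 and 3, median 0.09). The water channel gene AQP1 rose from 13 to 60.8 CPM (2.23, interval 1.68 to 2.79) and the carbonic anhydrase gene ca2 from 10.5 to 43.1 CPM (2.04). AQP1 also rose in C, from 11.9 to 74.9 CPM, whereas ca2 fell there from 154 to 62 CPM.

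The retinoid genes included a very abundant riser. Of 36 above the floor, 5 (13.9%, against 15.4% of all genes) were higher and 1 (2.78%, against 4.38%) was lower (TMM counts 3 and 6, median 0.22). The retinol binding protein gene rbp4l went from 3739.9, 3739 and 3783 CPM to 9262, 9206 and 9295 CPM, a 2.47-fold rise (log2 change 1.302, interval 1.27 to 1.33). In C it rose from 97.4 to 2351 CPM. Its reads are shared with an overlapping gene of the same values, so the 2 cannot be told apart. The retinol dehydrogenase gene RDH8 (ENSDARG00000099217), of the photoreceptor visual cycle, rose from 23.7 to 56.6 CPM (1.26) and the carotenoid cleavage gene BCO2 from 10.4 to 28.94 CPM (1.48). A more abundant RDH8 copy (ENSDARG00000028048), picked after its values were seen, stayed within 2-fold, with 181 and 323 CPM (0.83).

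Genes of glucose and lactate metabolism had 5 of 50 (10%, against 15.4% of all genes) higher and 2 (4%, against 4.38%) lower. TMM counts were 4 and 8, and the median was 0.04. Those that were called lay at 70.9 CPM or less in both MG libraries. The highest, GYG1, rose from 28 to 70.9 CPM (log2 change 1.34), and in C from 12.2 to 383 CPM (4.97). The lactate exporter gene SLC16A3 had 2.19 CPM at 96hpf and 12.6 CPM at 192hpf (log2 change 2.53), GAPDH (ENSDARG00000043457), of glycolysis, rose from 5.72 to 51.2 CPM (3.16), and the second glucose transporter copy slc2a1b fell from 20.6 to 5.52 CPM (-1.90). In C, GAPDH (ENSDARG00000043457) rose by nearly the same amount (3.11), while slc2a1b rose (1.39).

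Genes of oxidative phosphorylation had 5 of 85 (5.88%, against 15.4% of all genes) higher and 3 (3.53%, against 4.38%) lower. TMM counts were 1 and 6, and the median was -0.07. The complex I gene ndufa10 had one of the largest falls of all genes, from 1623, 1775 and 1481 CPM to 145, 143 and 145 CPM, 11.3-fold (log2 change -3.49, interval -3.62 to -3.37). In C this gene had 137 and 108 CPM, so the 192hpf MG level was close to that of C. The cytochrome c oxidase gene cox6b1 fell from 19.1 to 1.94 CPM (-3.30) and the cytochrome c gene cycsb from 390.3 to 172 CPM (-1.18), and both also fell in C (-2.88 and -1.17). The complex II gene SDHA rose from 93.1 to 205 CPM (1.14). Of 70 cytosolic ribosomal protein genes, 2 were higher and 0 lower (TMM counts 1 and 0), with a median of 0.51, and their summed level was 18808 CPM at 96hpf and 26464 CPM at 192hpf.

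Of 59 lipid genes above the floor, 9 (15.3%) were lower, against 4.38% of all genes, and 4 (6.78%) were higher, against 15.4% (TMM counts 1 higher and 13 lower). Besides fabp7a, the falls included the sterol desaturase gene sc5d, from 12.1 to 1.91 CPM (log2 change -2.66), the LDL receptor gene ldlrb, from 12.2 to 2.35 CPM (-2.37), and the sterol sensor gene insig1, from 38.8, 40.0 and 41.4 CPM to 12.9, 12.8 and 13.3 CPM (-1.62, interval -2.13 to -1.14). SREBF1, the transcription factor of fatty acid synthesis, fell from 30.1 to 13.7 CPM (-1.14). The fatty acid elongase gene ELOVL4 fell from 1469 to 592 CPM (-1.31) and the acyl-CoA ligase gene acsl4a from 145 to 41.805 CPM (-1.79).

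In C the lipid list had more members higher than lower, 23 and 10 of 74, with a median of 0.13. Among all genes in C, 19.4% were called higher and 10.9% lower, with a median of 0.07. The counts in C below are read against these shares. Of the genes that fell in MG, the changes in C were -1.65 for insig1, -1.40 for SREBF1, -1.73 for acsl4a, -1.53 for ldlrb, -0.87 for sc5d and -0.47 for ELOVL4. Other genes named from sterol synthesis stayed within 2-fold in MG. The prenyl synthase gene FDPS had a log2 change of -0.51, the isomerase gene IDI1 -0.41, and srebf2, the transcription factor of sterol synthesis, 0.14. Besides apoeb, the phospholipid transfer gene PLTP was higher, with 13.5 CPM at 96hpf and 67.2 CPM at 192hpf (2.32, interval 1.79 to 2.88). Insig1, SREBF1, ELOVL4 and the genes of sterol synthesis within 2-fold were picked for naming after their values were seen.

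Of 35 clock genes above the floor, 6 (17.1%, near the 15.4% of all genes) were higher, 5 (14.3%, against 4.38%) lower and 24 within 2-fold (TMM counts 3 and 7), with a median of -0.01. In C, 4 of 35 were higher and 14 lower (background 19.4% and 10.9%), with a median of -0.91. The lower ones included PER2, a light-induced clock repressor, from 221, 227 and 216 CPM to 66.6, 67 and 57.3 CPM (log2 change -1.80, interval -2.02 to -1.59). The positive-arm genes npas2 (-1.78), bmal2 (-1.26) and clocka (-1.03) and the nuclear receptor gene rorcb (-1.68) fell as well. All 5 were also lower in C, by -1.94, -1.98, -1.92, -0.98 and -2.36 in the order PER2, npas2, bmal2, clocka and rorcb.

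The higher clock genes included output and repressor genes. The repressor gene BHLHE41 rose from 189, 191 and 199 CPM to 1013, 1006 and 992 CPM, 5.19-fold (log2 change 2.38, interval 2.24 to 2.52), and it rose in C (1.87). The output transcription factor genes tefb, from 70.9 to 251 CPM (1.82), and dbpb, from 415 to 1079.6 CPM (1.38), rose in MG, while in C their changes were -0.03 and 0.75. The repressor gene ciartb rose from 55.6 to 119 CPM (1.099) and the cryptochrome gene cry1ab had a log2 change of 1.17. The labels give no time of day for either stage, so stage and hour of collection cannot be told apart. Clocka and ciartb were picked for naming after their values were seen.

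Of 47 immediate early and stress genes above the floor, 16 (34%, against 15.4% of all genes) were higher, 28 within 2-fold and 3 lower (TMM counts 11 and 8), with a median of 0.68. The inducible heat shock genes led this group. The hsp70 gene hsp70l rose from 43.9, 42.5 and 41.3 CPM to 281, 275 and 280.4 CPM (log2 change 2.71, interval 2.42 to 3.02). The copy hspa1b had 0 CPM in all 3 columns at 96hpf and 55.6, 56.8 and 60.1 CPM at 192hpf, which is at least 46.5-fold higher against the floor of 3 reads per library. The copies hsp70.1 and hsp70.3 rose by 2.69 and 2.37, and since these near-identical copies can share reads their separate values are uncertain. All 4 were also higher in C, by 2.34 for hsp70l, 4.89 for hspa1b, 1.24 for hsp70.1 and 1.149 for hsp70.3.

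Other stress genes rose in MG and stayed within 2-fold in C. The stress transcription factor gene atf3 went from 30.04 to 117 CPM (1.97; in C -0.07) and the phosphatase gene DUSP2 from 13.1 to 71.7 CPM (2.45; in C 0.20), and the antiproliferative gene btg1 rose from 350 to 808 CPM (1.21; in C -0.09). The opposite was seen for egr1, an immediate early transcription factor gene, which fell from 528, 526 and 518 CPM to 151, 148 and 155 CPM (-1.79, interval -1.93 to -1.66), and which was higher in C (1.09). In C, DUSP2 had 392 and 450 CPM and btg1 1041 and 975 CPM, above their MG levels at both stages. Atf3 had 70.8 and 67.7 CPM there. The AP-1 genes junbb (-0.94) and JUN (0.39) stayed within 2-fold in MG, although junbb passed it under TMM. Atf3, btg1, hsp70.3, junbb and JUN were picked for naming after their values were seen.

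**Figure D3:**
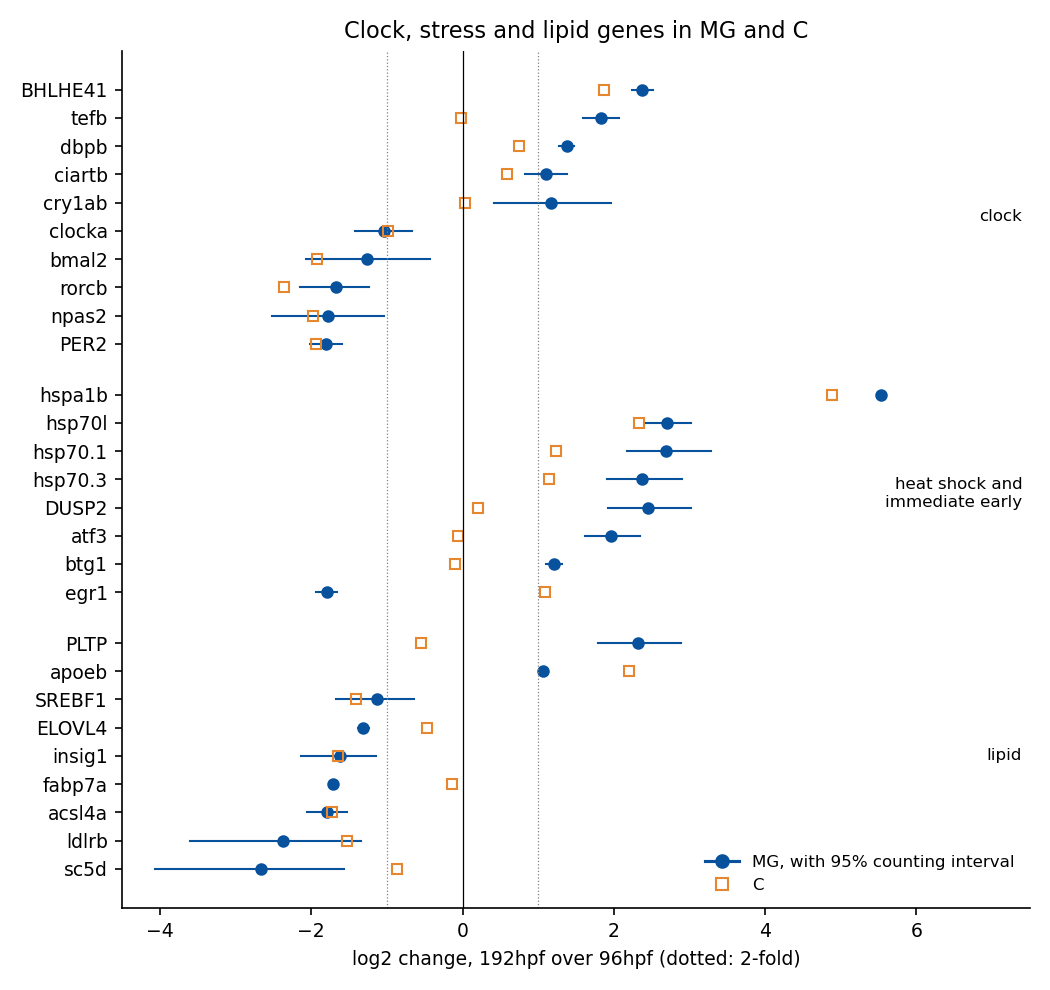
Log2 change from 96hpf to 192hpf of named clock, stress and lipid genes in MG (filled circles, with the 95% counting interval where both stages had reads) and in C (open squares). PER2, npas2, acsl4a and insig1 lie at nearly the same place in MG and C, while egr1, tefb, atf3 and PLTP lie apart.

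Of 59 glial and progenitor transcription factor genes above the floor, 14 (23.7%, against 15.4% of all genes) were higher and 2 lower (TMM counts 10 and 4), with a median of 0.48. INSM1, of newborn neurons, rose from 7.23 to 28.5 CPM (1.98), foxn4, of amacrine and horizontal cell precursors, from 8.98 to 33.3 CPM (1.89), and SOX11, of immature neurons, from 17.7 to 55.2 CPM (1.64). In C these 3 genes had higher levels at both stages, with 74.3 to 84.3 CPM for INSM1, 91.9 to 156 CPM for foxn4 and 54.2 to 67.1 CPM for SOX11. Of 56 cell cycle genes, 16 (28.57%) were higher and 2 lower (TMM counts 10 and 6; median 0.65, or 0.35 with a floor of 10 reads). The cyclin gene CCND2 had 6.56 CPM and then 21.1 CPM (1.68) and the atypical E2F repressor gene e2f7 had 3.27 CPM and then 13.5 CPM (2.04). The summed level of the cell cycle list was 1719.8 CPM at 96hpf and 1533 CPM at 192hpf, so the sum did not rise with the number of genes called higher.

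Of 36 Notch pathway genes, 7 (19.4%, against 15.4% of all genes) were higher and 2 (5.56%, against 4.38%) lower (TMM counts 4 and 3). Their median of 0.14 was below that of all genes. The ligand gene dll4 rose from 11.1, 12 and 5.35 CPM to 43.2, 40.7 and 46.9 CPM (2.2, interval 1.59 to 2.91) and the ligand gene jag1b from 20.7 to 47.7 CPM (1.21). RBPJ, the transcription factor through which Notch acts, rose from 36.4 to 91 CPM (1.32), as it did in C (1.02). The Notch target genes her4.2 (0.10) and hey1 (0.11) and the receptor gene NOTCH3 (0.40), all picked after their values were seen, stayed within 2-fold.

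Of 114 adhesion, polarity and matrix genes, 12 (10.5%, against 15.4% of all genes) were higher and 9 (7.89%, against 4.38%) lower (TMM counts 8 and 17), with a median of 0.20. Of the 72 at 10 CPM or more, 9 were higher and 2 lower, where 14.6% and 2.39% of all genes at that level were. Most of the members called lower thus lay under 10 CPM. The contactin gene cntn1a went from 15.7, 17.9 and 14.1 CPM to 166, 161 and 162 CPM, 10.2-fold (log2 change 3.36, interval 2.89 to 3.86), and the tenascin gene TNR from 15.4, 13.7 and 10.1 CPM to 93.9, 93.7 and 106 CPM (2.90). In C both fell, cntn1a from 396 to 192 CPM and TNR from 421 to 182 CPM. The laminin gene lama4 fell from 12.1 to 1.47 CPM (-3.04, interval -4.70 to -1.86) and the membrane protease gene mmp14b from 11.9 to 3.89 CPM (-1.61). The nidogen gene NID2 had 9.9, 7.83 and 8.62 CPM and then 0.141, 0.662 and 0.311 CPM, and the collagen gene COL4A1 8.85 CPM and then 3.06 CPM (-1.53), both picked after their values were seen. In C, NID2 had 18.2 and 8.66 CPM and COL4A1 35 and 31.8 CPM.

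Vascular markers were low and their sum hardly differed. The 14 endothelial markers summed to 41.4 to 44.3 CPM at 96hpf and 37.2 to 46.2 CPM at 192hpf, with 3 of them at 0 in both. The endothelial receptor gene tie1 had 7.18, 6.6 and 6.26 CPM and then 0.117, 0.118 and 0 CPM, whereas the endothelial cadherin gene cdh5 had a log2 change of 0.33 and the VEGF receptor gene KDR 0.58 (all 3 picked after their values were seen). The 9 blood markers summed to 14 to 19.8 CPM and then 0.89 to 1.29 CPM. The part of blood and vessel RNA in the falls of laminin, nidogen and collagen genes was not tested.

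Guidance and neurotrophin genes had 22 of 82 (26.8%) higher and 4 lower (TMM counts 12 and 7), with a median of 0.48. The GDNF receptor gene ret rose from 5.45 to 34.3 CPM (2.66), the neurotrophin receptor genes NGFR from 7.89 to 30.4 CPM (1.94) and NTRK3 from 14.6 to 48.8 CPM (1.74), and the neurotrophin gene BDNF from 3.55 to 10.2 CPM (1.52). Potassium channel genes had 18 of 64 (28.12%) higher and 2 lower (TMM counts 14 and 5), with a median of 0.58. The ether-a-go-go channel gene kcnh6a had 0, 0.619 and 0.202 CPM at 96hpf and 21.9, 22.6 and 22.3 CPM at 192hpf, and the channel subunit gene KCNAB2 rose from 11.8 to 54.9 CPM (2.21). In C, kcnh6a had 37.6 and 16.7 CPM and KCNAB2 29.5 and 29.6 CPM. The inward rectifier gene KCNJ10 (ENSDARG00000090815), through which MG move potassium, had 22.1 CPM and then 32.34 CPM (0.55, interval 0.09 to 1.03). Synapse genes had 6 of 58 higher (10.3%, below the 15.4% of all genes) and 2 lower (TMM counts 4 and 2), and their median of 0.30 was near the 0.28 of all genes. The higher ones included the GABA receptor genes GABRR1 (2.05) and GABRR2 (1.78) and the complexin gene CPLX2 (1.502), and the lower ones the postsynaptic scaffold gene dlg4b, from 10.3 to 4.93 CPM (-1.06). In C, GABRR1 had 242 and 208 CPM and GABRR2 202 and 128 CPM, above their MG levels at both stages. CPLX2 fell in C from 98.8 to 41.1 CPM. Only 8 of the 37 symbols of the connexin and pannexin list matched a gene. The 6 genes above the floor had 2 higher and 0 lower (TMM counts 1 and 0), 1 of them the pannexin gene PANX1 (1.01).

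The photoreceptor genes accounted for the largest shift in reads. The green cone opsin gene opn1mw1 was the most abundant gene of both libraries, with 166890.5, 165998 and 165296 CPM at 96hpf and 56788, 56022 and 56777 CPM at 192hpf, or 16.6% and 5.65% of all reads. This was a 2.94-fold fall (log2 change -1.55, interval -1.56 to -1.55). Its neighbour opn1mw2 fell to the same degree, from 5465, 5287 and 5075 CPM to 1878, 2059.7 and 1784 CPM (-1.47). The green opsin copies are near-identical and can share reads. Another copy, opn1mw3, had 12.6, 204 and 328 CPM in the 96hpf columns and 104, 110 and 159 CPM in the 192hpf columns. Its direction thus depended on the columns compared. In C, opn1mw1 had 2537 and 2098 CPM.

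The UV cone opsin gene opn1sw1 went the other way, from 5392, 5490.1 and 5307 CPM to 12251, 12336 and 12236 CPM, a 2.27-fold rise (1.19, interval 1.16 to 1.21). The cone arrestin gene ARR3 (ENSDARG00000098475) rose from 504 to 1179.6 CPM (1.23) and the cone phosphodiesterase subunit gene PDE6H (ENSDARG00000056791) from 26.9 to 78.7 CPM (1.55). The far more abundant pde6ha did not rise, with 3471 and 2903 CPM (-0.26), and was picked after its values were seen. The cone transducin genes GNAT2, with 7691 and 7605 CPM (-0.02), and gnb3b, with 14615 and 9983 CPM (-0.55), stayed within 2-fold, and the guanylate cyclase activator gene guca1d fell from 40.3 to 17.4 CPM (-1.21). Of 14 cone markers above the floor, 4 were thus higher and 3 lower (TMM counts 2 and 3; median -0.17). In C, 10 of 14 were higher and 0 lower (median 1.98), where 19.4% of all genes were called higher and 10.9% lower.

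No rod marker was called lower. Rhodopsin (rho) had 58999, 58909 and 61982 CPM at 96hpf and 54006, 53534 and 57019.9 CPM at 192hpf (-0.13). Of 12 rod markers above the floor, 2 were higher and 0 lower, with a median of 0.48, and under TMM 0 were called. The rod arrestin gene sagb rose from 2112, 2089.5 and 2116 CPM to 5093, 5013 and 4924 CPM (1.25, interval 1.21 to 1.29), and the rod transducin gene gnat1 had a log2 change of 0.35. In C, rho had 8740.0 and 16099 CPM. GNAT2 and gnat1 were picked after their values were seen. When the reads of the 35 rod and cone list genes were left out of the totals, every other log2 change moved down by 0.21.

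**Figure D4:**
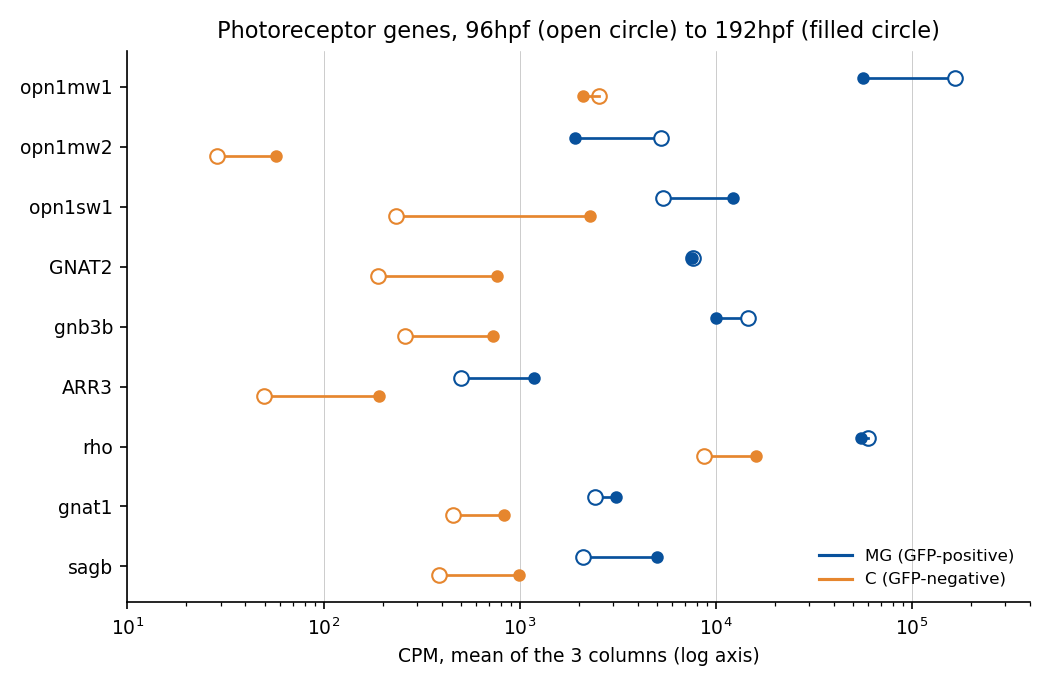
Mean CPM of 9 photoreceptor genes at 96hpf (open circles) and 192hpf (filled circles) in MG and in C, on a log axis. The green opsin genes opn1mw1 and opn1mw2 moved down in MG while opn1sw1, ARR3 and sagb moved up in both sorts.

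Of 11 bipolar cell markers above the floor, 6 (54.5%) were higher and 1 lower in MG (TMM counts 5 and 1), with a median of 1.22. In C, 1 of 11 was higher and 4 lower (background 19.4% and 10.9%), with a median of -0.43. Not all markers that rose in MG fell in C: NYX, of the bipolar cell synapse, had a log2 change of 3.69 in MG and 0.25 in C, the calcium-binding protein gene cabp5b 1.70 and 0.17, and the channel gene trpm1b 1.37 and -0.61. The G protein gene gnao1b went from 318 to 803 CPM in MG (1.34) and from 10144 to 2129.9 CPM in C (-2.25), and the transcription factor gene VSX1 from 54.1 to 131 CPM in MG (1.28) and from 2782 to 556 CPM in C (-2.32). The bipolar list summed to 578 to 598 CPM in the 96hpf MG columns and 1348 to 1358 CPM in the 192hpf MG columns, against 15029 to 15103 CPM and 3858 to 3887 CPM in C, with the same number of its 15 genes, 4, at 0 in each group. VSX1 was picked after its values were seen.

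Retinal ganglion cell markers had 3 of 9 higher and 0 lower in MG (TMM counts 3 and 0; median 0.87) and 0 of 11 higher and 6 lower in C (median -1.18). The growth-cone gene STMN2 rose from 38.5 to 115 CPM in MG (1.58) and fell from 125 to 53.6 CPM in C. The list summed to 422 to 435 CPM in 96hpf MG and 662 to 685 CPM in 192hpf MG. Amacrine markers had 3 of 10 higher and 0 lower (TMM counts 2 and 0), with a median of 0.35 near that of all genes, and in C 0 of 12 higher and 3 lower. The higher ones included the acetylcholine-synthesis gene CHAT, from 8.74 to 49.3 CPM (2.50), and the GABA-synthesis gene GAD1, from 89.1 to 246 CPM (1.47). The 3 horizontal cell markers above the floor, onecut1, onecut2 and onecutl, were all higher (TMM counts 2 and 0). Only 5 of the 9 symbols of that list matched a gene. The part of such neuronal RNA in the rises of guidance, potassium channel and progenitor genes was not tested.

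Markers of cells outside the neural retina also differed. Pigment cell markers had 7 of 11 higher and 0 lower (TMM counts 7 and 1) and a median of 1.60, which was 0.46 with a floor of 10 reads and 0.68 with no floor. They summed to 93.9 to 108 CPM at 96hpf and 212 to 233 CPM at 192hpf, with dct, of melanin synthesis, going from 11.5 to 61.8 CPM. In C the pigment list went from 257 to 3970.1 CPM. Lens markers had 8 of 14 higher and 1 lower (TMM counts 8 and 1; median 1.39), and the crystallin gene crybb1l1 rose from 38.3 to 251 CPM (2.71). The lens list summed to 365 to 390.3 CPM in 96hpf MG and 1278 to 1297 CPM in 192hpf MG. In C it was lower at both stages, with 205 and 344 CPM. Cornea and skin markers had 6 of 14 higher and 2 lower (TMM counts 5 and 3; median 0.72, or 0.15 with no floor and 1.45 with a floor of 10 reads), with the keratin gene krt4 at 31.6 CPM and then 107 CPM, against 2543 and 28351 CPM in C. The cornea and skin list summed to 4556 CPM in 96hpf C and 63506 CPM in 192hpf C. The part of this rise in the falls of neuronal markers in C was not tested. Microglia and macrophage markers were low, at 38.3 to 42.2 CPM and then 22.2 to 26.5 CPM, with 0 of 6 higher and 2 lower (TMM counts 0 and 2). Myelin and Schwann cell markers had 2 of 4 higher and 0 lower (TMM counts 1 and 0).

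**Figure D5:**
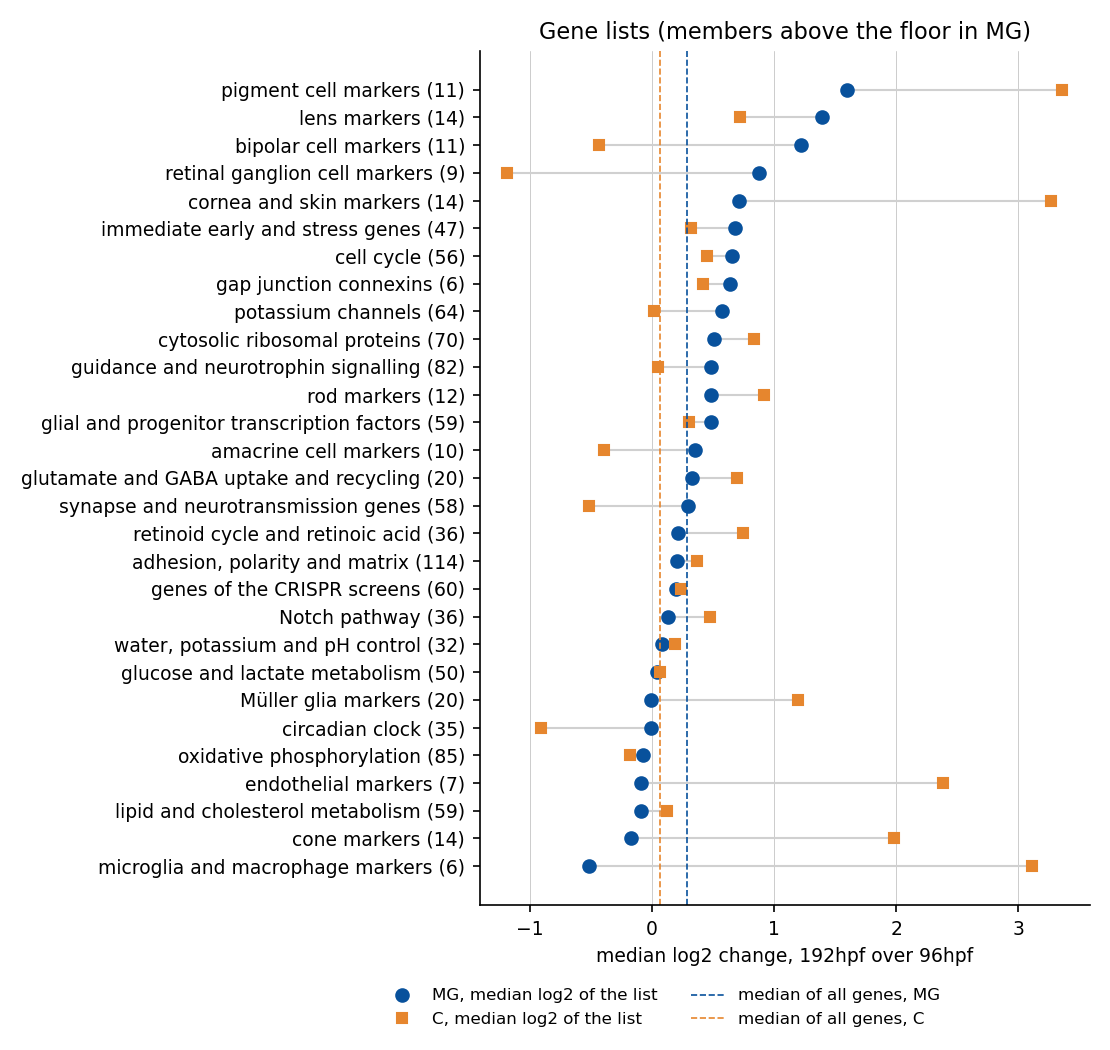
Median log2 change from 96hpf to 192hpf of each gene list with at least 5 members above the floor, in MG (circles) and in C (squares), with the number above the floor in MG in brackets. Dashed lines give the medians of all genes, 0.28 in MG and 0.07 in C, and the bipolar and ganglion cell lists lie on opposite sides of these lines in MG and C.

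Of 14825 genes above the floor in both sorts, 16.2% were at least 2-fold higher and 10.2% lower in C. Of 2286 genes that were higher in MG and above the floor in C, 592 (25.9%) were also at least 2-fold higher in C, which is 24.6% of the 2402 higher in C, and 179 (7.83%) were lower there. Of 645 genes lower in MG, 133 (20.6%) were also lower in C, 8.77% of the 1516 lower in C, and 132 (20.5%) were higher there.

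Of 62 symbols listed from the study's CRISPR screens of MG morphology, 61 were matched, to 68 genes, since a name can stand for several copies. Some of these may be copies that the study did not target. Of the 60 above the floor, 4 (6.67%, against 15.4% of all genes) were higher and 4 (6.67%, against 4.38%) lower (TMM counts 2 and 7). Their median was 0.20. Fabp7a and egr1 (above) were the abundant fallers, and the integrin gene itga5, with 4.92, 3.71 and 5.9 CPM and then 1.03, 0.946 and 0.979 CPM, and the tubulin gene tuba8l3, with 4.31, 2.47 and 8.57 CPM and then 1.22, 0.946 and 1.07 CPM, were low in both. The risers were the transcription factor genes wt1b, from 16.5 to 33.6 CPM (1.03, interval 0.52 to 1.58), and nfat5b, from 27.8 to 66.8 CPM (1.27), and at low levels the adhesion gene CADM2 (2.47) and dcaf8 (1.29). The cell adhesion gene cadm3 (0.20) and the synaptophysin gene sypb (-0.70), picked after their values were seen, stayed within 2-fold.

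Among the 10 largest rises, besides hspa1b and kcnh6a, RPP38, of RNase P, went from 2.05, 1.24 and 1.62 CPM to 64.3, 69.2 and 59.6 CPM (log2 change 5.30, interval 3.93 to 7.19), the lens galectin-like gene GRIFIN from 3.13 to 83.9 CPM (4.74), the tRNA-processing gene ELAC1 from 6.13 to 158 CPM (4.68) and BTBD17 from 2.03 to 47.06 CPM (4.54). The non-visual opsin gene opn9 had 0 CPM in all 3 columns at 96hpf and 30.26, 30.28 and 40.7 CPM at 192hpf, at least 27.3-fold higher. The remaining 3, the zinc transporter gene SLC30A8, the kinase subunit gene prkar2ab and si:dkey-205h13.2, had at most 0.41 CPM in any 96hpf column and 20.2 to 30.4 CPM in the 192hpf columns.

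Among the 10 largest falls, besides ndufa10, cox6b1, lama4, HEPACAM and sc5d, tmem176l.4 went from 33.6, 47 and 29.9 CPM to 2.11, 2.13 and 2.11 CPM, 17.4-fold (-4.12, interval -5.32 to -3.16). The xenobiotic-metabolism gene CYP1A1 fell from 112, 115 and 95 CPM to 12.7, 12.5 and 10.5 CPM (-3.17) and the galectin gene lgals2a from 20.7 to 2.68 CPM (-2.95). All 3 of these were higher in C, by 2.71, 2.48 and 4.003. The urea-cycle gene CPS1 had 10.1 CPM and then 1.153 CPM, and the muscle cadherin gene CDH15 9.51, 8.45 and 13.3 CPM and then 0, 0.237 and 0.311 CPM. Among the 5 most abundant genes with a symbol in each library, those outside these groups stayed within 2-fold. The creatine kinase gene CKB had 32956 and 36533 CPM (0.15) and the mitochondrial ADP/ATP carrier gene SLC25A5 11919 and 7461 CPM (-0.68).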

How the data were processed

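Reads had been trimmed, aligned and counted per Ensembl gene (the submitters' notes name Trimmomatic, HISAT2 and GRCz10, whereas the study's methods name Zv9, so no coordinates are given). The authors deposited log2 CPM with a prior of 0.25 reads and no composition scaling. CPM and reads were recovered from these log2 values. The recovered reads fall on steps of 0.01 read, so reads mapping to several genes had been shared between them. Columns of a stage were averaged into 1 library. Levels under 3 reads of the shallower library were set to that floor (1.24 CPM in MG, 0.549 CPM in C), and genes above it in either library were compared at a 2-fold threshold. Intervals are exact (Clopper-Pearson) 95% intervals of a ratio of reads. The steps were tested on simulated data. Python 3.11.15, scipy 1.17.1, R 4.3.3 and limma 3.58.1 were used.

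Named were the 10 largest rises and falls at 10 CPM or more that were 2-fold apart in all 9 pairs of columns, up to 4 called members each way of each of 33 lists, all MG markers, the 5 most abundant genes, called genes of the CRISPR screens, and others said to have been picked later. The comparison and the lists were chosen with earlier results of these data known. A symbol was found for 26172 identifiers, 9245 of them in human style and 2621 from the study's tables. One item is not reported here.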

Additional observations from a re-analysis of the deposited data

Results flagged for a closer look

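The 15 genes in this part are named genes that were at least 2-fold apart between 96hpf and 192hpf in every pair of columns, in opposite directions in MG and in C. The difference between the sorts was not tested, since each group was counted as 1 library. The value given is the log2 change in MG minus that in C. Cornea and skin markers took 0.456% of the reads of 96hpf C and 6.35% of those of 192hpf C. The part of this shift within C in the differences below was not tested.

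Genes that fell in MG and rose in C were the galectin gene lgals2a (-6.95), tmem176l.4 (-6.83), the xenobiotic-metabolism gene CYP1A1 (-5.66), the glucose transporter gene slc2a1b (-3.29) and the immediate early gene egr1 (-2.88). Of these, egr1 was the most abundant in MG, at 524 CPM at 96hpf.

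Genes that rose in MG and fell in C included the complexin gene CPLX2 (2.77), the growth-cone gene STMN2 (2.80), the bipolar cell genes gnao1b (3.59) and VSX1 (3.60), the tenascin gene TNR (4.11), the contactin gene cntn1a (4.403) and the potassium channel gene kcnh6a (5.34). The others were the carbonic anhydrase gene ca2 (3.35), BTBD17 (5.67) and the non-visual opsin gene opn9 (6.44). The values of opn9 and kcnh6a rest on the floor, under which their 96hpf MG levels lay.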

How the results depend on the processing

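The main results were 2297 genes higher and 654 lower, with a median log2 change of 0.28. Under TMM the counts were 1363 and 1173 and the median 0.00773. A floor of 10 reads gave 1464 and 257, and at least 10 CPM in either library gave 1335 and 219 with a median of 0.33. Adding 1 CPM in place of a floor moved the median to 0.16. Leaving the rod and cone lists out of the totals, an alternative chosen after seeing the data, gave 1535 higher and 1002 lower genes and a median of 0.0769. Without replicate 1, 2 or 3 the counts were 2262 to 2443 and 639 to 734, and the median 0.29. Fewer genes pass the stricter floor and filter by construction, and the scalings shift all genes alike. The 3 columns of a stage were counted as 1 library, so a replicate block was not read as biological pairs: same-numbered columns correlated by -0.01 to 0.04. Limma was run on the columns of all 12 groups, whose spread was not read as spread between animals. It gave 1834 higher and 632 lower, and 1814 and 629 with the replicate block. On the 6 compared columns alone it gave 2706 and 860. Of 150 named called genes, 26 were under 2-fold under TMM, 7 with the floor of 10 reads and 7 with the added CPM. Without replicate 1, 2 or 3 the numbers were 2, 4 and 3. With the rod and cone lists left out of the totals, 17 of 142 were under 2-fold. In each of these settings 0 called genes changed direction. The scalings, the higher floor and the added CPM could not reverse a 2-fold change, so for them this was fixed in advance. Named genes were not recomputed under the 10 CPM filter or in the limma fits. Depth at 96hpf limits genes of a few CPM, whose counting intervals are the widest.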

Other observations

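The genes listed at 0 in all columns cluster by chromosome. Of 1735 genes assigned by symbol to chromosomes 1, 10, 11 and 12 (RefSeq, GRCz12tu), 1724 (99.4%) are listed at 0 in all 36 columns, against 324 of 10151 (3.19%) on the other 21 chromosomes. The cause was not tested.

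A few genes differed between columns of a library far beyond read sampling. FAM177A1 had 8546, 2238 and 8799.6 CPM in the 96hpf MG columns and 1318, 652 and 3339 CPM in the 192hpf MG columns. PRC1 had 7.38, 516 and 6.47 CPM and nfkbiab 104, 883 and 2383 CPM in the 96hpf MG columns. None of them entered the largest rises or falls, which had to hold in every pair of columns.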
